A study of Mus musculus with 12 samples.

Results

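Mitochondrial ribosomal proteins are encoded in the nucleus, translated by cytosolic ribosomes and imported into mitochondria, where they assemble on mitochondrially encoded rRNAs into the ribosome that makes the core subunits of oxidative phosphorylation. The 78 genes described here are the protein-coding genes of the mouse annotation (GENCODE M21) whose symbol begins with Mrpl, after the large subunit, or Mrps, after the small subunit. They comprise 49 Mrpl and 29 Mrps genes on 17 chromosomes, out of 35523 genes with values. The symbols do not settle the subunit in every case, since Mrps30 and Mrps18a belong to the large subunit, and Mrps36 is now known as a component of oxoglutarate dehydrogenase. By origin, 29 genes encode large subunit proteins with bacterial homologs and 22 encode large subunit proteins with no counterpart in the bacterial large subunit. The latter include Mrps18a, whose bacterial homolog is a small subunit protein. Another 17 encode small subunit proteins with bacterial homologs, 9 encode small subunit proteins particular to mitochondria, and Mrps36 stands apart.

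All libraries came from epididymal stromal vascular fraction (SVF) cells, the non-adipocyte cells of the fat pad, of male Lepob/Lepob mice 12 weeks of age, which lack leptin and are obese (ob/ob). All cultures received IBMX (0.5 mM), dexamethasone (1 µM) and insulin (5 µg/mL) for 2 days and insulin alone for 2 more days. They had 1 µM rosiglitazone (Rosi), a PPARγ agonist, or DMSO vehicle (Veh) throughout. At the end all were given fresh medium for 1 hour, with cycloheximide (100 µg/mL) for the last 5 minutes to hold ribosomes on their mRNAs. The input libraries hold total poly(A) RNA, and the polysome libraries hold poly(A) RNA of the heavy fractions of a 5 to 50% sucrose gradient. Each fraction was sequenced from Veh and from Rosi cultures with 3 libraries per group, but input Veh replicates 2 and 3 were identical and were counted as 1, which left 11. An mRNA that gains in polysome over input takes a larger share of the heavy fractions than of total RNA. Because every library is scaled to its own total, no value here is an amount per cell.

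Library depth ran from 17446517 to 24016101 reads, and the 78 mRNAs had between 50333 and 90604 reads per library, with no member under 63 reads in any library. Lists of marker genes were compared with the labelled cell type. The 8 adipocyte markers summed to 163 to 166 CPM (counts scaled to a common library size, not per length) in input Veh and 808 to 943 CPM in input Rosi, and 4 of the 8 were under 1 CPM on average in input Veh. The 8 macrophage markers summed to 15494 to 17752 CPM in input Veh and 11061 to 12835 CPM in input Rosi, against 643 to 726 CPM and 633 to 698 CPM for the 8 adipose progenitor markers, so macrophage mRNAs were abundant in cultures labelled SVF. The 6 smooth muscle and pericyte markers summed to 11566 to 11688 CPM in input Veh and 10152 to 10690 CPM in input Rosi, and the 4 epididymis markers, of which 3 were under 1 CPM, to 112 to 124 CPM and 72.2 to 91.6 CPM. All 5 lymphocyte and all 4 erythroid markers were under 1 CPM in each group. In such bulk libraries, fewer cells of a type and less RNA per cell cannot be told apart. The part of these shifts in the results below was not tested.

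The coding sequences of the members that stood at the ends of the polysome over input order are shown because length and base composition varied with that order. They are the annotated coding sequences of GENCODE M21 (GRCm38) in the transcript with the most input reads, with the start codon in capitals. The first 120 bases are given for the 4 members highest in polysome over input under Rosi, Mrps18c (chr5:100798627-100804471, plus strand), Mrpl18 (chr17:12911349-12916345, minus strand), Mrps33 (chr6:39801804-39810988, minus strand) and Mrpl50 (chr4:49512596-49521093, minus strand).
Mrps18c: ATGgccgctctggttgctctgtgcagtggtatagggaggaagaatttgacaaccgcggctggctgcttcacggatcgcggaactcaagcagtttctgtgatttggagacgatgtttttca
Mrpl18: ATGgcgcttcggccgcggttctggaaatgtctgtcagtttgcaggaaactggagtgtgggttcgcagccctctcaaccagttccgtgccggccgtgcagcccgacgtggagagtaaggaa
Mrps33: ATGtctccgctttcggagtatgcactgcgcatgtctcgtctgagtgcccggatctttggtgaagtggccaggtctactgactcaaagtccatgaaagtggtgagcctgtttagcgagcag
Mrpl50: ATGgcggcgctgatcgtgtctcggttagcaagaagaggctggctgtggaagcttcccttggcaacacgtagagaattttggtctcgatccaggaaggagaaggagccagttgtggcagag
The same stretch is given for the 4 lowest members, Mrps27 (chr13:99344786-99415562, plus strand), Mrpl38 (chr11:116131817-116138868, minus strand), Mrps31 (chr8:22411361-22429665, plus strand) and Mrpl4 (chr9:21002738-21008839, plus strand).
Mrps27: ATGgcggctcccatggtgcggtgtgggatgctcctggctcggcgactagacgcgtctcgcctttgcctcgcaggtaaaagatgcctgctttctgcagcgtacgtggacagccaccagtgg
Mrpl38: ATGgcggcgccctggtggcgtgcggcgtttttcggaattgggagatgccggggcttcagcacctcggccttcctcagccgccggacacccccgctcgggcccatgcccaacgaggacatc
Mrps31: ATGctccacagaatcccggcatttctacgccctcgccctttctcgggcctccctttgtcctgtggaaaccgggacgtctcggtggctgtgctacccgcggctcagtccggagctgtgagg
Mrpl4: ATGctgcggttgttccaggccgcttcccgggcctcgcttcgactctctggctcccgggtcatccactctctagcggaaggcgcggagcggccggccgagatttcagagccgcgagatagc
G and C made up 51.7 to 60% of these bases in the upper set and 62.5 to 69.2% in the lower set. Over the whole coding sequence the sets overlapped, at 44.99 to 53.89% in the upper and 47.31 to 59.98% in the lower. The whole coding sequence without its stop codon is given for Mrpl33 (chr5:31596935-31664384, plus strand), the shortest of the 78 at 195 bases, or 65 codons.
Mrpl33: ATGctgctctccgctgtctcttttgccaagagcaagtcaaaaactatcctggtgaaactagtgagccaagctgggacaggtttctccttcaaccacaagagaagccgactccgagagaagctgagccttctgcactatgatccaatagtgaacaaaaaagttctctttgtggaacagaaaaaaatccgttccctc

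The level of the 78 mRNAs spanned 69.2-fold. Per length, in TPM (reads per base of transcript, scaled to a common total in each library), the mean in input Veh ran from 5.48 for Mrpl1 to 379 for Mrpl33, with a median of 56.7 and quartiles of 34.3 and 97.6. Mrpl33 read 355 and 403 TPM in the 2 distinct input Veh libraries. Mrps21, the homolog of a small bacterial subunit protein, read 331 and 384 TPM, so the 2 highest members overlapped. Mrpl52 followed at 305 and 304 TPM, Mrpl17 at 257 and 233 TPM, and Mrpl20, a homolog of a bacterial protein needed for subunit assembly, at 180 and 219 TPM. From Mrpl52 to Mrpl20 neighbouring members did not overlap. At the low end, Mrpl1, which forms the mobile stalk beside the exit site for tRNA, read 5.80 and 5.16 TPM. It stood clear of Mrpl47 at 11.7 and 10.4 TPM. Mrpl19 (12.3 and 11.8 TPM), Mrps30 (11.9 and 12.6 TPM) and Mrpl23 (14.6 and 11.6 TPM) were not told apart beyond their spread.

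**Figure D1:**
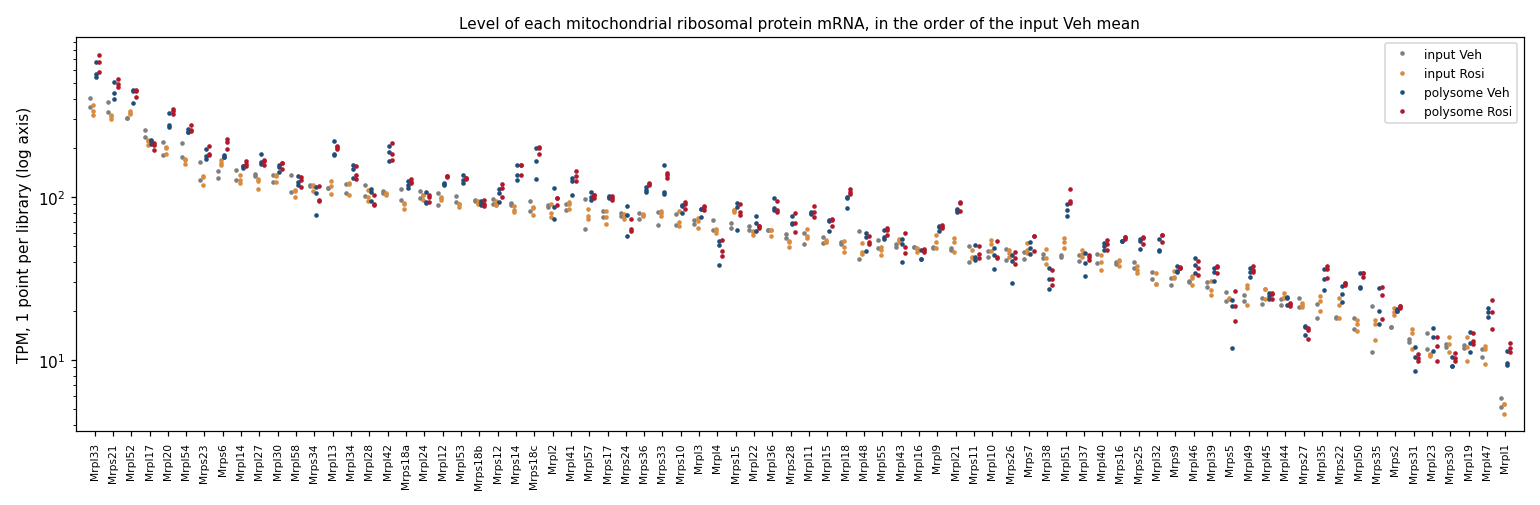
TPM on a log axis of each of the 78 members, 1 point per library, coloured by group and ordered by the input Veh mean. Levels run from 5.48 TPM for Mrpl1 to 379 TPM for Mrpl33 in input Veh, and the blue and red polysome points lie above the input points for Mrpl33, Mrps18c and Mrpl1 and below them for Mrpl4 and Mrps27.

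Rosi did not move the total mRNA level of any member past the thresholds. In input, 0 of the 78 members were called at an adjusted p under 0.05 with an absolute log2 fold change over 0.2 by edgeR, against 1.34% of the 13603 genes tested. At an unadjusted p under 0.05 by edgeR, 2 members were higher and 4 lower, beside 9.2% and 7.79% of all genes. DESeq2 also called 0, beside 2.83% of all genes. It had 4 at an unadjusted p under 0.05, beside 1972 of 13603 genes. The log2 fold changes had a median of −0.08, against 0.01 over all genes, with 18 members above 0 and 60 below. In 36 members the groups did not overlap (2 higher and 34 lower), beside 36.7% of all genes in either direction and 23.6% lower, where 2 libraries are set against 3.

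The extremes were small. Mrpl54, a large subunit protein particular to mitochondria, read 46.1 and 60.2 CPM in input Veh and 44.0, 39.7 and 40.6 CPM in input Rosi. Every Rosi library lay below both Veh libraries, and the log2 fold change was −0.29 ± 0.12 (SE, adjusted p 0.221). Mrps18a gave −0.28 ± 0.12, Mrpl23 −0.28 ± 0.22 and Mrpl27, whose bacterial homolog reaches the peptidyl transferase centre, −0.25 ± 0.11. At the other end stood Mrps2 at 0.27 ± 0.11, with 23.9 and 25.9 CPM in Veh against 28.5, 29.9 and 27.4 CPM in Rosi. Mrps15 gave 0.25 ± 0.10, Mrps6 0.19 ± 0.09 and Mrps22 0.17 ± 0.14. Without input Rosi replicate 1, 1 member was called lower, Mrpl17 at −0.29 ± 0.09 (edgeR, adjusted p 0.0425), which is named after its values were seen, and 11.7% of all genes were called in that setting. The marker sums given above moved between the same libraries, and their part was not tested.

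On polysomes the Rosi and Veh levels of the members were likewise close. In the polysome fraction, 0 of 78 were called, against 0.655% of 13436 genes, with 1 member higher at an unadjusted p under 0.05 by edgeR, none lower, and 0 called by DESeq2, also with 1 at an unadjusted p under 0.05. The median log2 fold change was 0.02, against −0.01 over all genes, with 48 members above 0 and 30 below. Groups did not overlap in 5 members, beside 8.96% of all genes. Mrps6 had the highest value at 0.25 ± 0.10 (adjusted p 0.985), from 82.9, 77.3 and 74.2 CPM in Veh to 90.7, 99.9 and 89.6 CPM in Rosi, and its libraries did not overlap. Mrps18c (0.22 ± 0.16), Mrpl20 (0.18 ± 0.12) and Mrps22 (0.17 ± 0.13) came next. Mrpl23 (−0.26 ± 0.21), Mrps24 (−0.21 ± 0.15), Mrpl19 (−0.17 ± 0.13) and Mrpl28 (−0.17 ± 0.10) stood lowest, though Mrpl19 turned to 0.06 on log2 TPM.

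The members differed far more between fractions than between treatments. Together they took 0.290 and 0.314% of reads in the input Veh libraries and 0.293, 0.302 and 0.286% in input Rosi. They took 0.398, 0.388 and 0.365% in polysome Veh and 0.384, 0.407 and 0.416% in polysome Rosi, so every polysome library lay above every input library. Reads on transcripts annotated with retained introns made up 2.85 to 3.03% of the members' reads in input and 2.12 to 2.48% in polysome. Those on transcripts annotated as nonsense-mediated decay targets went the other way, at 3.10 to 3.59% in input and 3.61 to 4.05% in polysome. Across all libraries 91.5 to 92.1% lay on coding transcripts.

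**Figure D2:**
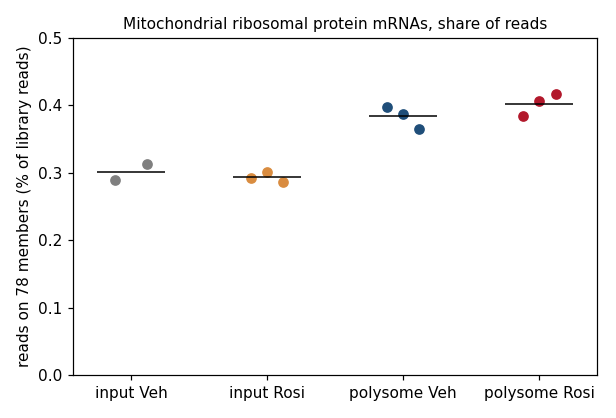
Share of library reads on the 78 members in percent, 1 point per library, with a line at each group mean. The 5 input libraries lie between 0.286 and 0.314% and the 6 polysome libraries between 0.365 and 0.416%.

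Under Veh, 27 members were higher and 5 lower in polysome than in input at an adjusted p under 0.05. These are 34.6 and 6.41% of the 78, beside 24.7% of all 14042 genes called higher and 24.6% called lower. The median was 0.21, against 0.02 over all genes, and 0 members passed an absolute log2 fold change of 1, as 9.67% of all genes did. Under Rosi, 47 members were higher and 4 lower, or 60.3 and 5.13%, beside 29.1 and 26% of all genes. The Rosi median was 0.37, against 0.00 over all genes, and 4 members were higher by more than 1, beside 6.49% of all genes. Groups lay apart with polysome higher in 36 of 78 members under Veh (beside 32.5% of all genes) and in 52 of 78 under Rosi (beside 33.7%). The 27 members called higher under Veh were all among the 47 called higher under Rosi, which is 57.45% of the latter, and the 4 called lower under Rosi were 80% of the 5 called lower under Veh. Without input Veh replicate 1 the Veh calls dropped to 13 higher and 4 lower, where 16.7% of members and 18.3% of all genes were higher. With only the Veh groups in the fit they were 17 higher and 4 lower, where 21.8% of members and 21.3% of all genes were higher. In both settings the members' share of higher calls under Veh was no longer clear of the share over all genes. Without input Veh replicate 2, 35.9% of members and 17.5% of all genes were higher.

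**Figure D3:**
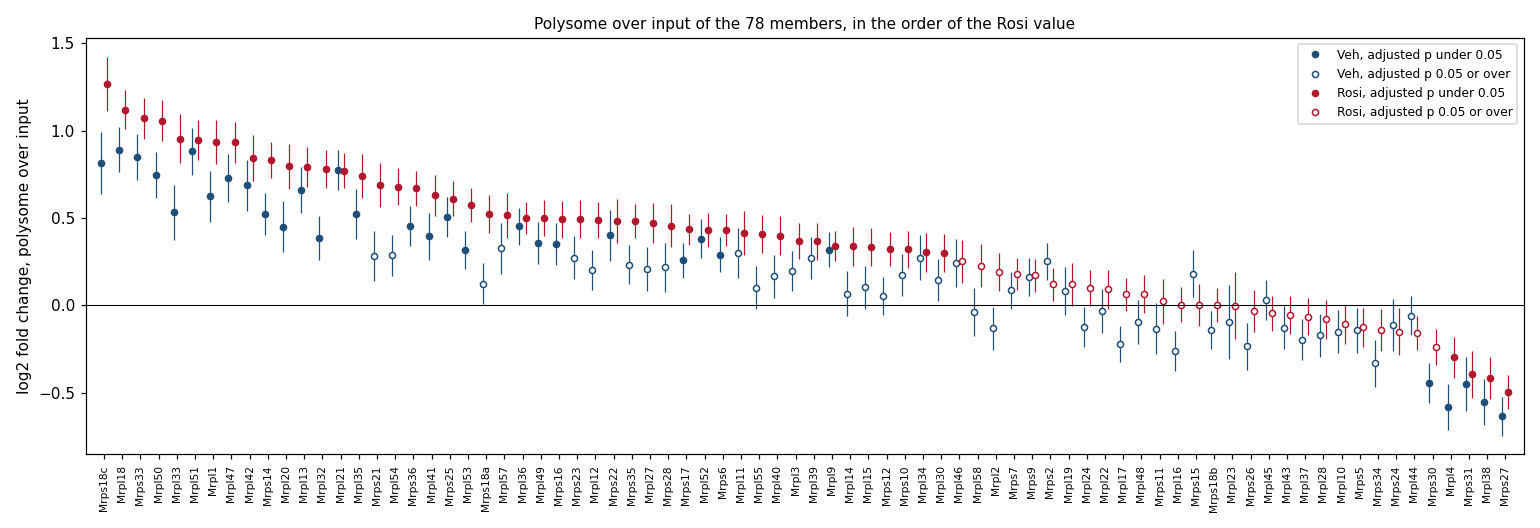
Log2 fold change of polysome over input for each member under Veh (blue) and Rosi (red), ordered by the Rosi value, with bars of 1 SE and filled points for an adjusted p under 0.05. The Rosi values run from 1.27 for Mrps18c to −0.50 for Mrps27, and 72 of 78 Rosi points lie above the Veh point of the same member.

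The 4 members past a log2 fold change of 1 under Rosi came from both subunits. Mrps18c, 1 of 3 mammalian homologs of a single bacterial small subunit protein, read 22.9 and 28.3 CPM in input Veh and 23.6, 22.4 and 19.8 CPM in input Rosi. It read 55.9, 45.6 and 33.7 CPM in polysome Veh and 47.3, 54.4 and 56.5 CPM in polysome Rosi. Every polysome library lay above every input library, by 0.82 ± 0.18 on the log2 scale under Veh (SE, adjusted p 0.00143) and 1.27 ± 0.16 under Rosi (adjusted p 8.23e-06). Mrpl18, whose bacterial homolog binds a ribosomal RNA of the large subunit, rose from 32.4, 38.4 and 33.9 CPM in input Rosi to 70.9, 73.0 and 83.5 CPM in polysome Rosi, or by 1.12 ± 0.11, and by 0.89 ± 0.13 under Veh. Mrps33, a small subunit protein particular to mitochondria, rose from 36.5, 37.5 and 35.1 CPM to 73.8, 77.3 and 78.4 CPM under Rosi. Its log2 fold change was 1.07 ± 0.12 under Rosi and 0.85 ± 0.13 under Veh. Mrpl50, a large subunit protein particular to mitochondria, rose from 23.1, 25.5 and 23.3 CPM to 46.0, 50.9 and 52.7 CPM, or by 1.06 ± 0.12, and by 0.75 ± 0.13 under Veh.

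Just below that limit under Rosi were Mrpl33 at 0.95 ± 0.14, Mrpl51 at 0.95 ± 0.12, Mrpl1 at 0.93 ± 0.13 and Mrpl47 at 0.93 ± 0.12. The other members with the smallest p-values were Mrps14 (0.83 ± 0.10), Mrpl32 (0.78 ± 0.11) and Mrpl21 (0.77 ± 0.10) under Rosi, and Mrpl21 (0.77 ± 0.12), Mrpl42 (0.69 ± 0.15), Mrpl13 (0.66 ± 0.13) and Mrps25 (0.51 ± 0.11) under Veh. Mrpl33, the most abundant member, read 64.5 and 79.5 CPM in input Veh, 58.1, 65.1 and 55.8 CPM in input Rosi, 122, 94.5 and 95.6 CPM in polysome Veh and 95.3, 116 and 135 CPM in polysome Rosi. Mrpl1, the least abundant, rose likewise under Rosi, from 12.0, 13.6 and 10.2 CPM to 21.6, 23.2 and 23.5 CPM. So the most and the least abundant member moved the same way, and Spearman's rho between the input Veh TPM and the Rosi value was 0.20 over the 78 members (Pearson's r 0.18).

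The members that fell on polysomes were long. Mrps27, a small subunit protein of the pentatricopeptide repeat family, read 31.0 and 29.3 CPM in input Veh and 18.7, 20.2 and 19.2 CPM in polysome Veh. Under Rosi it read 27.1, 26.9 and 23.5 CPM in input and 18.8, 18.8 and 17.3 CPM in polysome. It fell by 0.63 ± 0.11 under Veh (adjusted p 0.000249) and by 0.50 ± 0.10 under Rosi (adjusted p 0.000608), and no library overlapped. Mrpl38, a large subunit protein particular to mitochondria, fell by 0.55 ± 0.13 and 0.41 ± 0.12, and Mrps31 by 0.45 ± 0.15 and 0.40 ± 0.14. With a library left out, Mrps31 kept its call in 8 of 11 fits under each treatment. Mrpl4, whose bacterial homolog lines the exit tunnel, fell by 0.58 ± 0.13 under Veh and 0.30 ± 0.12 under Rosi (adjusted p 0.0444). Its Rosi call held in 7 of 11 fits with a library left out. Mrps30 fell by 0.44 ± 0.12 under Veh, while its Rosi value of −0.24 ± 0.10 missed the threshold (adjusted p 0.0612).

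**Figure D4:**
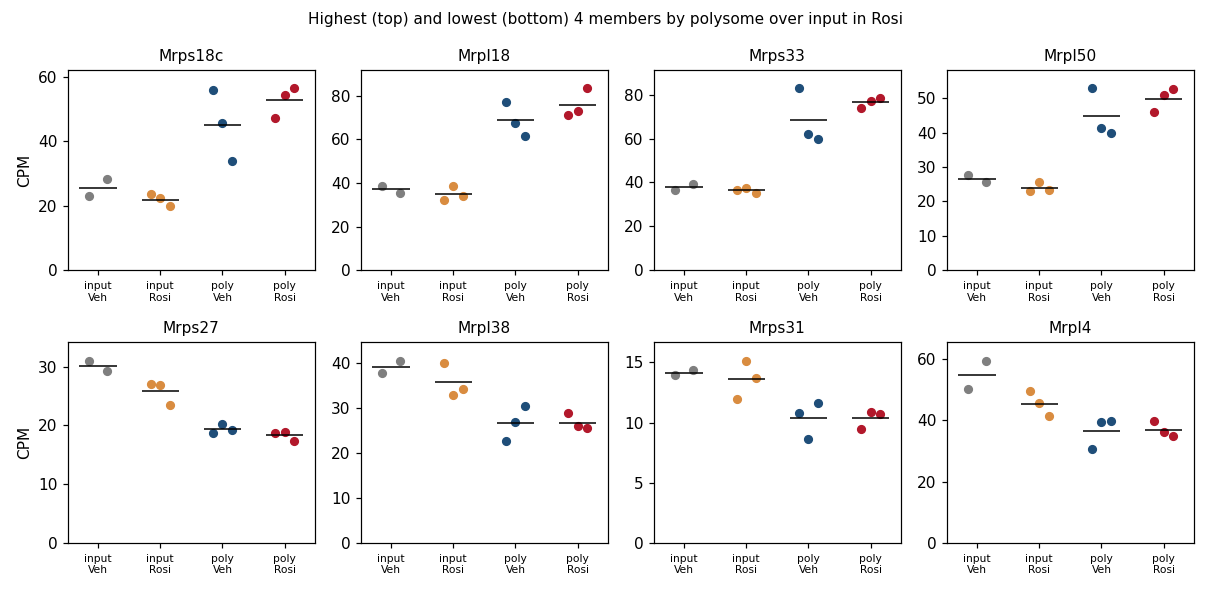
CPM by library and group for the 4 members with the highest (top row) and the 4 with the lowest (bottom row) polysome over input under Rosi, with a line at each group mean and axes from 0. In the top row every polysome point lies above every input point, as for Mrps18c at 33.7 to 56.5 against 19.8 to 28.3 CPM, and in the bottom row every polysome point lies below the input points.

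Members with known roles beyond the core were spread over this order. Mrpl12, the homolog of the bacterial stalk protein that recruits translation factors, gave 0.20 ± 0.12 under Veh (adjusted p 0.158) and rose by 0.49 ± 0.10 under Rosi. Mrps12, at the decoding centre, gave 0.05 ± 0.11 and rose by 0.32 ± 0.10 under Rosi. Mrpl36 rose in both, by 0.45 ± 0.11 and 0.50 ± 0.09, as did Mrps22, by 0.40 ± 0.15 and 0.48 ± 0.13. The Veh call of Mrps22 held in 7 of 11 fits with a library left out. Mrps36, the dehydrogenase component, also rose in both, by 0.45 ± 0.11 and 0.67 ± 0.10. Mrpl58, a peptidyl-tRNA hydrolase that frees stalled ribosomes, gave −0.04 ± 0.14 under Veh and 0.23 ± 0.12 under Rosi and was not called. Mrps7 (0.09 ± 0.10 and 0.18 ± 0.09), Mrps34 (−0.33 ± 0.13 and −0.14 ± 0.12) and Mrpl44, which has a ribonuclease III fold (−0.06 ± 0.11 and −0.16 ± 0.10), were not called either.

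The 3 homologs of one bacterial protein took different places. Mrps18c rose in both treatments, as given above. Mrps18a, in the large subunit, gave 0.12 ± 0.12 under Veh (adjusted p 0.409) and rose by 0.52 ± 0.11 under Rosi, where it went from 42.4, 41.9 and 36.4 CPM to 54.3, 59.9 and 59.1 CPM. Mrps18b gave −0.14 ± 0.11 and 0.00 ± 0.10 and was not called, and its input and polysome libraries overlapped under both treatments. The differences between these 3 genes were not tested.

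No class of subunit or origin held the rise alone. Under Rosi, 19 of the 29 large subunit members with bacterial homologs were called higher (median 0.34) and 13 of the 22 large subunit members without a counterpart there (median 0.40). In the small subunit these counts were 9 of 17 (median 0.32) and 5 of 9 (median 0.48). Under Veh they were 11 of 29, 7 of 22, 5 of 17 and 3 of 9, with medians of 0.20, 0.20, 0.18 and 0.23. Of all genes, 29.1% were called higher under Rosi and 24.7% under Veh. As given above, the members' share of higher calls under Veh was not clear of all genes in every setting. The members called lower under Veh came from the 2 large subunit classes, 1 and 2 of them, and from the small subunit members particular to mitochondria, with 2. Of all genes, 24.6% were called lower under Veh.

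Coding length and base composition varied with polysome over input among the members. Over the 78 members, which share the same libraries, log2 coding length of the longest coding transcript gave a Pearson's r of −0.51 and a Spearman's rho of −0.53 with the Veh values and −0.57 and −0.59 with the Rosi values. With the length of the whole transcript that had the most input reads, rho was −0.09 under Veh and −0.14 under Rosi, so the relation was weak for the whole transcript. The share of G and C in the coding sequence gave an r of −0.43 and a rho of −0.43 under Veh and −0.42 and −0.40 under Rosi. Coding length and G and C share were themselves nearly unrelated among members (r −0.14, rho −0.12). These are descriptions across genes, which are not independent replicates, and these features were looked at after the values were seen.

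For groups by length, the coding length of the coding transcript with the most input reads was used. In 25 members with a coding sequence under 450 bases the medians were 0.33 under Veh and 0.52 under Rosi, and 24 of 25 lay above 0 under Rosi. In 26 members of 450 to 750 bases the medians were 0.17 and 0.41. In 27 members over 750 bases they were 0.03 and 0.00, and 16 of 27 lay above 0 under Rosi. Mrpl1 at 1008 bases and Mrpl47 at 756 bases were long and still rose, and they had the 2 lowest G and C shares, 41.6 and 44.97%. Of 14 members over 750 bases with 52% or more G and C, 6 lay above 0 under Rosi (median −0.07), against 10 of 13 with less (median 0.17).

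**Figure D5:**
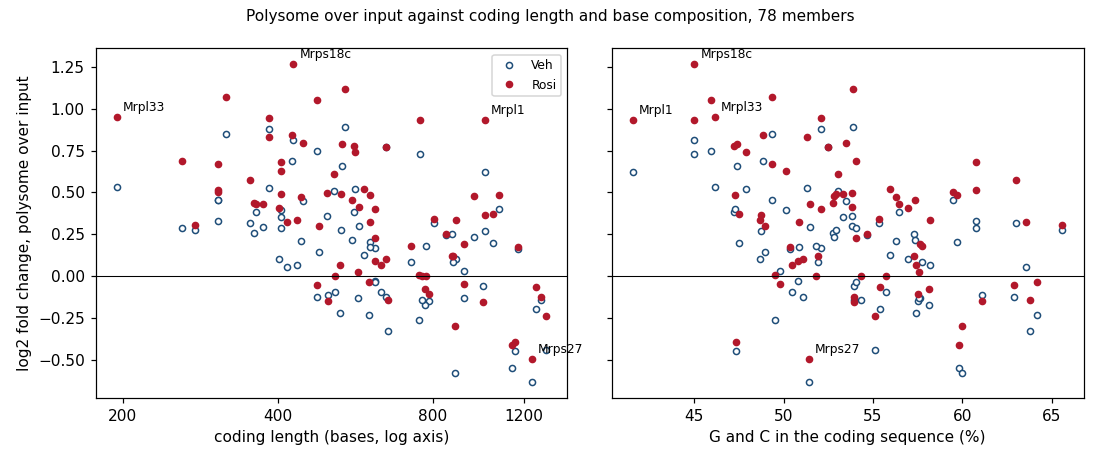
Log2 fold change of polysome over input of the 78 members against coding length in bases (left, log axis) and against the share of G and C in the coding sequence in percent (right), with open blue points for Veh and filled red points for Rosi. Values fall from the short members such as Mrpl33 at 195 bases to Mrps27 at 1245 bases, and Mrpl1 at 1008 bases stays high with 41.6% G and C.

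The same features moved with polysome over input in the whole library. Over 13530 tested genes with a coding transcript, rho was −0.30 for the coding length of the transcript with the most input reads and −0.55 for G and C share under Veh, and −0.32 and −0.59 under Rosi. On that measure of length the members gave −0.49 and −0.55. Members had a median coding length of 562.5 bases and a median G and C share of 53.6%, against 1341 bases and 53.0% over those genes. Among all genes under 450 coding bases the medians were 0.42 under Veh and 0.53 under Rosi, and from 450 to 750 bases 0.23 and 0.23. Over 750 bases they were −0.09 and −0.11, below the members' 0.03 and 0.00. So members under 450 bases lay below other genes of that length under Veh and near them under Rosi, and members of 450 to 750 bases lay below them under Veh and above them under Rosi. Among genes with over 52% G and C, the 48 members had medians of 0.18 under Veh and 0.34 under Rosi, against −0.32 and −0.30 over 7479 genes. Those members were shorter, with a median coding length of 535.5 bases against 1296. At 52% or more G and C, 16 members under 450 bases had medians of 0.28 and 0.48, against 0.22 and 0.26 over 580 genes. At the same share, 14 members over 750 bases had −0.14 and −0.07, against −0.44 and −0.40 over 5790 genes. Whether length or composition accounts for the members' values was not tested.

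The gain of members over input was larger under Rosi than under Veh in 72 of 78 cases, but no single difference passed the test. Of all genes, 59.1% lay that way, as did 78 of 83 nuclear-encoded oxidative phosphorylation subunits (median 0.29) and 62 of 83 cytosolic ribosomal proteins (median 0.15). The interaction of fraction and treatment, which measures how far polysome over input changed with Rosi (translation efficiency), was called in 0 members by edgeR, as in 0% of the 14042 genes, and in 0 members by DESeq2. Its median over members was 0.16, against 0.06 over all genes, with a range from −0.18 to 0.45. Before adjustment, 4 members were higher and none lower at p under 0.05, beside 4.46% of all genes higher, and DESeq2 also gave 4. Mrps18c had the highest interaction at 0.45 ± 0.23 (adjusted p 0.731), followed by Mrpl33 (0.42 ± 0.21), Mrps21 (0.40 ± 0.19) and Mrps18a (0.40 ± 0.16). Mrps15 (−0.18 ± 0.18), Mrps2 (−0.13 ± 0.14), Mrpl44 (−0.10 ± 0.15) and Mrpl45 (−0.08 ± 0.15) stood lowest. On log2 TPM with a pseudocount of 1 the median was 0.07 for members and −0.03 over all genes. With edgeR and a library left out, the members' median ran from 0.10 without input Veh replicate 2 to 0.23 without input Veh replicate 1.

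The mRNAs that work with the mitochondrial ribosome did not all share the pattern, and their counts are to be read beside the 29.1% higher and 26% lower of all genes under Rosi. Of 5 further mitoribosome proteins with other names, 3 were higher and 1 lower under Rosi, with Chchd1 at 1.14 ± 0.13, Ptcd3 at 0.62 ± 0.13 and Dap3, a GTP-binding small subunit protein, at −0.37 ± 0.09. Of 16 mitochondrial translation factors, 5 were higher and 8 lower under Rosi (median −0.29), with Mtrf1, a release factor, at 1.32 ± 0.16 and Oxa1l, the inner membrane insertase, at −0.75 ± 0.10. Of 27 assembly and rRNA genes, 5 (18.5%) were higher and 6 (22.2%) lower (median −0.16), among them Tfb2m at 1.07 ± 0.12 and the helicase Dhx30 at −0.84 ± 0.13. Of 15 genes of mitochondrial genome expression, 7 were higher and 4 lower, with Tfam, which packages and transcribes mitochondrial DNA, at 0.92 ± 0.13. None of these 4 lists held a gene called for Rosi against Veh in input or polysome by edgeR, beside 1.34% and 0.655% of all genes. At an unadjusted p under 0.05 at most 1 gene of a list passed in either comparison. Of all genes, 17% passed in input and 4.73% in polysome.

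The nuclear-encoded subunits of oxidative phosphorylation moved in the same direction as the members. Counts of polysome over input here stand beside 29.1% higher and 26% lower of all genes under Rosi. Under Veh these shares were 24.7% and 24.6%. Of 83, 55 were higher and 6 lower under Rosi (median 0.54), and 34 were higher and 9 lower under Veh (median 0.22), with Cox7b at 1.36 ± 0.13 under Rosi. The cytosolic ribosomal proteins did not, with 15 of 83 higher and 21 lower under Rosi (median 0.00) and 7 higher and 25 lower under Veh (median −0.22), among them Rpsa at −1.74 ± 0.09 under Rosi. The 13 mitochondrially encoded mRNAs, which are translated inside mitochondria and not by cytosolic ribosomes, were called lower in polysome in 11 of 13 cases under Rosi (median −0.83). Under Veh, 5 were lower and 2 higher (median −0.21). Of them mt-Nd1 read 1510, 1370 and 1256 CPM in input Rosi and 409, 351 and 503 CPM in polysome Rosi, or −1.71 ± 0.13. For Rosi against Veh, 3 of the 13 were called lower on polysomes by edgeR, mt-Atp8 at −0.85 ± 0.16, mt-Nd1 at −0.77 ± 0.14 and mt-Co1 at −0.62 ± 0.12. Over all 13436 genes tested there, 3 (0.0223%) were called lower. In input 1 of the 13 was called higher, mt-Nd4l at 0.47 ± 0.09, beside 1.13% of 13603 genes. Their summed level was 12384 to 13440 CPM in input Veh, 12610 to 14940 CPM in input Rosi, 11079 to 14071 CPM in polysome Veh and 7314 to 10243 CPM in polysome Rosi.

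Of 8 regulators of mitochondrial biogenesis, 2 (25%) were higher and 2 (25%) lower in polysome over input under Rosi, near the shares over all genes. Among them were Gabpa and Gabpb1, the subunits of an ETS-family factor long tied to nuclear genes of mitochondria, at 0.69 ± 0.10 and 0.63 ± 0.10 and the coactivator Pprc1 at −1.04 ± 0.13. None of the 8 was called for Rosi against Veh in input, beside 1.34% of all genes. There edgeR put 2 higher and 1 lower at p under 0.05 before adjustment, beside 9.2% and 7.79% of all genes.

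Promoter letters of the members are given as a description apart from these libraries, with motifs chosen after the values were seen. RefSeq promoter windows (GRCm38.p6, 250 bases before to 50 after a gene's start) were at hand for 69 of the 78 members, with 75 windows among 32851 in all. On either strand, the ETS core CCGGAAG was present in 34.7% of member windows and 8.86% of all windows. The NRF1 core GCATGCGC, whose letters on both strands can overlap, was present in 10.7% and 2.71%, and the YY1 core AAGATGGC in 16% and 2.75%. At least 1 of the 3 was in 38 member windows (50.7%), against 13.3% of all, and the other member windows held none. Windows of expressed genes or of the other gene lists were not counted apart, so these shares are not shown to be particular to the members. A direct repeat of AGGTCA with 1 base between, the textbook PPARγ element, was in 0 of the 75 member windows and in 0.0396% of all. Only exact letters were counted, which stood in 13 of all windows. So rare a match would seldom be met in 75 windows, and the 0 cannot show a lack of PPARγ sites. The ETS core stood in the windows of Mrps18c, Mrpl18 and Mrps33, high in polysome over input, and of Mrps27, the lowest. It was absent from those of Mrpl50, also high, and Mrps31, also low, and no window was at hand for Mrpl38 and Mrpl4. A match of letters does not show binding. The match is shown in capitals with 20 bases on each side, written 5′ to 3′ on the gene's strand, for Mrps18c (chr5:100798583-100798629), Mrps27 (chr13:99344718-99344764) and Mrpl51 (chr6:125192090-125192136).
Mrps18c: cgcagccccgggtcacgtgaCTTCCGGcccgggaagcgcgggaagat
Mrps27: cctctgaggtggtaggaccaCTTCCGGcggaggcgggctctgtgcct
Mrpl51: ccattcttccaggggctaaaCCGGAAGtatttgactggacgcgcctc

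Some members share sequence with neighbours. An annotated gene lies across from 26 members on the other strand and overlaps 8 on the same strand, by any number of exon bases. The library kit is not stated to keep strand, so reads from within such an overlap cannot be told apart by strand. How much of each member overlaps was not measured. Among the members at the ends of a comparison, Mrpl18 lies across from Tcp1, Mrpl19 from Gcfc2, Mrpl27 from Eme1, Mrpl44 from Wdfy1, Mrpl47 from Actl6a and Ndufb5, Mrps27 from 6430562O15Rik and Mrps30 from B430218F22Rik. On their own strand, Mrps18c overlaps Gm43511, Mrps6 overlaps Slc5a3 and Gm49711, Mrpl33 overlaps Gm43809, Mrpl51 overlaps Mir3098 and Mrps24 overlaps Urgcp. Mrpl12, Mrpl13, Mrpl21, Mrpl36, Mrpl58, Mrps7, Mrps18b, Mrps25 and Mrps34 also overlap a gene. For 4 members (Mrpl3, Mrpl57, Mrps16 and Mrps26, named after their values were seen), under 60% of input reads were assigned to coding transcripts. Mrpl23 is 1 of 3 members with an annotated pseudogene of the same name, and it had the fewest reads.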

How the data were processed

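Epididymal SVF cultures of Lepob/Lepob mice treated with Veh or Rosi were measured by poly(A) RNA sequencing in input and polysome fractions. Per the labels and the study's methods, reads were demultiplexed with bcl2fastq 2.17, checked with FastQC and quantified per transcript with Salmon on mm10. The authors deposited, for each of 117135 transcripts, an estimated count and a TPM value. Here estimated counts were summed per gene through GENCODE M21 (115973 transcripts matched and 1162 did not, with 0.381 to 0.464% of reads) and rounded. Input Veh replicates 2 and 3 held identical values and entered once.

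Rosi was compared with Veh within each fraction in a fit of those libraries. Polysome over input in each treatment and their interaction came from 1 fit of all groups. The tests were edgeR 4.0.16 quasi-likelihood tests (R 4.3.3) with TMM factors, the default expression filter and Benjamini-Hochberg adjustment over all genes. An SE is the absolute log2 fold change divided by the square root of F. CPM uses TMM library sizes. DESeq2 1.42.0, limma 3.58.1 on log2 TPM, other factors and filters, and each library left out were alternatives. Scripts were tested on simulated data. Intervals and p-values measure the spread between libraries only, as the labels do not say which came from separate animals.

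The members and gene lists were chosen with earlier results of these data known. Named members are up to 10 called per direction by smallest p, the 4 highest and 4 lowest values of each comparison, the 5 highest and 5 lowest levels, and 14 with known roles. Genes of other lists are named where called, up to 3 per list by smallest p. The oxidative phosphorylation list leaves out assembly factors, and the cytosolic ribosomal list leaves out kinases and binding proteins with similar symbols. Prorp had no values under its symbol.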

Additional observations from a re-analysis of the deposited data

How the results depend on the processing

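The named results comprise 76 values of 42 members. With a library left out, 715 comparisons of a named value with its alternative kept direction and side of the threshold, 16 lost and 5 gained the call, and 12 changed sign. Under other settings these counts were 792, 6, 10 and 12. Leaving out 1 library, the count of called members ran from 0 to 1 for Rosi over Veh in input (1 without input Rosi replicate 1, beside 11.7% of all genes), from 17 to 39 for polysome over input under Veh (17 without input Veh replicate 1, with 16.7% of members and 18.3% of all genes higher) and the Veh median from 0.12 to 0.27. With only the Veh groups in the fit, 21 members were called, with 21.8% of members and 21.3% of all genes higher. With a log2 fold change past 1 as well, 0 were called under Veh and 4 under Rosi. On log2 TPM with a pseudocount of 0.1 or 1, the Veh median was 0.304 and 0.301 and the interaction median 0.0710 and 0.0709, beside −0.0373 and −0.0337 over all genes. With transcript length in place of coding length, Spearman's rho was −0.0891 under Veh and −0.143 under Rosi. With the upper quartile factors, the interaction median was −0.01 over all genes and 0.09 over members.

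Some values changed sign. On log2 TPM with a pseudocount of 0.1 and 1, Mrpl19 for Rosi over Veh in polysome, at −0.17 with edgeR, was 0.0602 and 0.0559, and under Veh Mrpl44 was 0.0348 and 0.0335 and Mrpl58 0.0527 and 0.0523. Mrps18b under Rosi was −0.00932 in DESeq2, −0.00945 with RLE factors, −0.0212 and −0.0210 on log2 TPM, −0.0443 with upper quartile factors and −0.00384 with only 2 groups. With a library left out it ran from −0.0477 to 0.0660. Polysome over input under Veh then ran from −0.178 to 0.0737 for Mrpl44, from −0.201 to 0.155 for Mrpl58, from −0.0242 to 0.135 for Mrps12 and from −0.0460 to 0.323 for Mrps18a, and the interaction of Mrpl44 from −0.232 to 0.0198. The causes were not tested.

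Correlations of same-numbered libraries' deviations from their group means ran from −0.395 to 0.204. The paper describes input as total RNA taken before fractionation, so same-numbered input and polysome libraries may share a culture. Deviations within so small a group are tied to each other, and the identical input Veh libraries leave their numbers uncertain. These correlations therefore cannot show whether replicate numbers pair the libraries. With the replicate number as a block, 29 members were called under Veh, 49 under Rosi and 0 in each other comparison. With 1 Veh input library left, that library was assumed to vary like the others. For Rosi over Veh the largest SE was that of the member with the fewest reads, Mrpl23, at 0.217 in input and 0.207 in polysome.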
